A study of Homo sapiens with 6 samples.

Results

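The genes described here are 44 components of focal adhesions and of the actin cytoskeleton that pulls on them. They were chosen by symbol, with earlier results of these data known, and found through their Ensembl identifiers with GENCODE release 29 (GRCh38). Each matched 1 gene, so they make up 44 of the 19746 genes in the deposited tables, and all 44 were abundant enough to be tested. By role they divide into 8 links between integrins and actin, 8 signaling adaptors and kinases, 5 genes of the zyxin family and the tensins, 3 actin crosslinkers, 7 GTPase and ROCK genes, 7 myosin and tropomyosin genes, 3 genes of actin turnover and protein cleavage, and the 3 ERM genes (ezrin, radixin and moesin).

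RNA-Seq was done in SW480, an established human colorectal cancer cell line of epithelial origin. The groups are a control labelled shNT and knockdowns of PCYT2 with 1 of 2 short hairpins (shPcyt2-1, shPcyt2-2), and each of the 3 groups has 2 libraries. According to the methods of the study, the knockdown hairpins were delivered in the pLKO.1-TRC vector and infected cells were selected with puromycin. The vector and selection of the shNT cells are not given in the sources used here, and neither the labels nor the methods describe cloning of the cells. PCYT2 makes the cytidine-activated precursor of phosphatidylethanolamine, a membrane phospholipid, and the study asked how its loss affects migration and the clustering of the adhesion protein paxillin. The labels do not say whether the 2 libraries of a group came from separate cultures, so the p-values measure only the spread between these libraries, which may be technical.

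Focal adhesions are plaques in which integrins, the receptors for the extracellular matrix, are tied to bundles of actin filaments. Talin and the kindlins switch integrins on, vinculin and alpha-actinin strengthen the link to actin, and paxillin, focal adhesion kinase and p130Cas recruit the enzymes that signal to small GTPases. RHOA and its kinase ROCK drive myosin II to pull on the filaments, whereas cofilin, profilin and calpain take filaments and adhesions apart or renew them, and this turnover is what lets an epithelial tumor cell crawl.

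Values were deposited per gene and library and are read here as FPKM, that is fragments divided by the length of the gene and the size of the library, a unit in which levels of different genes can be set side by side per length. The tables list 18879 to 19301 rows per library, and their values sum to between 396467 and 402612. The read depth cannot be recovered from them, which leaves the 2 libraries per group as the only guide to precision. Differences between groups are on the scale log2(FPKM + 1), which understates the change of genes with low values. They were tested with limma across the 12756 genes with a mean of at least 0.5 FPKM, and a gene is said to have risen or fallen where the Benjamini-Hochberg adjusted p was under 0.05. In RNA from a whole culture, fewer cells that express a gene and less RNA per cell cannot be told apart.

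The marker levels were those of epithelial cells, and identity with the SW480 line was not tested. EPCAM, a surface marker of epithelium, was listed at 258 to 312 FPKM, and KRT8, a keratin of simple epithelia, had a mean of 3377 FPKM, while KRT20, a keratin of differentiated colon cells, did not exceed 0.095 FPKM in any library. The sum of the 10 colon epithelium markers was 8237 and 8798 FPKM with shNT, 8448 and 8542 FPKM with shPcyt2-1, and 6283 and 6584 FPKM with shPcyt2-2. This sum moved with shPcyt2-2, and its part in the differences of that hairpin was not tested. Markers of other cells were low, apart from SMTN and CD68, whose means exceeded the median of all tested genes (7.16 FPKM). Of the 8 fibroblast markers COL3A1 had no row in any table, LUM was the most abundant (1.42 FPKM), and the sum was 2.28 and 2.48 FPKM with shNT, 3.64 and 4.13 FPKM with shPcyt2-1, and 3.80 and 3.61 FPKM with shPcyt2-2. None of the 4 endothelial markers reached a mean of 0.5 FPKM, and among the 5 leukocyte markers PTPRC had no row in any table and CD68 was the most abundant at 19.5 FPKM. The 7 smooth muscle markers summed to 38.7 to 48.2 FPKM, nearly all of it SMTN (38.4 FPKM). The tables list only values above 0 and hold no mitochondrial protein-coding gene, so a missing row does not show that a gene is not expressed.

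PCYT2 (ENSG00000185813, chr17:81900965-81911464, minus strand) was at 11.6 and 13.8 FPKM in the shNT libraries, 7.11 and 7.36 FPKM with shPcyt2-1, and 6.71 and 6.18 FPKM with shPcyt2-2. Every knockdown library was thus lower than either control. The log2 difference was -0.73 for shPcyt2-1 (standard error 0.10, limma adjusted p = 0.00205) and -0.88 for shPcyt2-2 (standard error 0.10, limma adjusted p = 0.00261).

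The second shNT library stood apart from the others by base composition. A trend on GC content and gene length accounted for 39.6% of the variation of its log2 values around the mean of the 6 libraries, compared with 0.788% to 9.38% in the other 5. Both comparisons with shNT leaned with GC content across the 12739 genes that have one. The comparison of the hairpins with each other takes its difference from the 4 knockdown libraries, and shNT enters it only through the shared estimate of spread.

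In all, 29 of the 44 genes passed in at least 1 of the 3 comparisons among shNT, shPcyt2-1 and shPcyt2-2. With shPcyt2-1, 9 rose and 7 fell against shNT, 36.4% of the members, where 26.7% of all tested genes passed (16.5% rose and 10.1% fell). Under median-ratio scaling 8 of these 16 calls held, with CRKL the only rise among them. With shPcyt2-2, 6 rose and 8 fell, 31.8% of the members, where 12.4% of all tested genes passed (7.69% rose and 4.74% fell). Under median-ratio scaling 10 of these 14 calls held, with FERMT2 and MYL9 the only rises among them. The same calls held after the GC and length trend was removed. Between the hairpins, 10 were higher and 10 lower with shPcyt2-2 than with shPcyt2-1, 45.5% of the members, where 27.1% of all tested genes passed (12.9% higher and 14.2% lower). The members are abundant, with a median of 27.6 FPKM compared with 7.16 FPKM for all tested genes, and abundant genes passed more often. Among the 5269 tested genes with a mean of at least 10 FPKM, 33.8%, 18.9% and 34.4% passed in the 3 comparisons, and among the 32 members at that level 13, 11 and 17 passed (40.6%, 34.4% and 53.1%).

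The median log2 difference of the members was -0.0369 with shPcyt2-1 (all tested genes 0.0669), 0.0301 with shPcyt2-2 (all tested genes 0.0438) and 0.0045 between the hairpins (all tested genes -0.0234). In the main fit members thus rose and fell in near equal number, and no comparison shifted the whole group. This balance depended on the scaling, since the member calls against shNT that median-ratio scaling lost were all rises. The changes were small. The lowest and highest differences were -0.58 and 0.32 with shPcyt2-1, -0.59 and 0.66 with shPcyt2-2, and -0.69 and 0.85 between the hairpins. Both shPcyt2-1 libraries lay above both shNT libraries in 15 members and below them in 16, where 69.0% of all tested genes did not overlap. For shPcyt2-2 against shNT these were 16 and 14 members (57.5% of all tested genes), and for shPcyt2-2 against shPcyt2-1 they were 15 and 16 members (67.3% of all tested genes). With 2 libraries a side, a lack of overlap is thus the rule in these data and not a mark of the members. The summed level of the 44 genes lay between 3843 and 4018 FPKM, or 0.995% to 1.05% of the sum over the 19746 genes left after identifiers were merged, in every group.

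**Figure D1:**
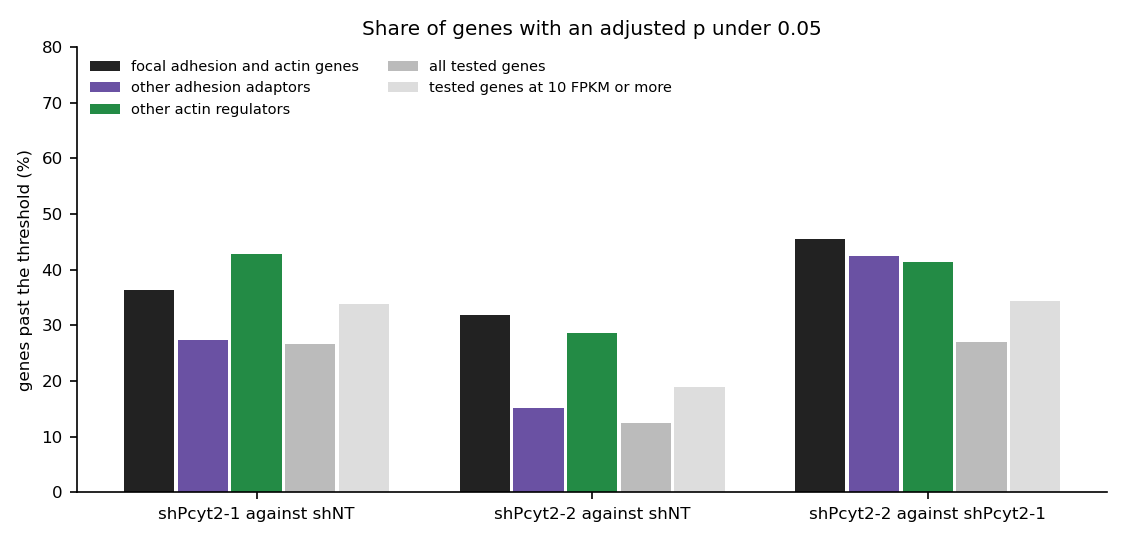
Bars give the share of genes (%) with an adjusted p under 0.05 in each of 3 comparisons, for the 44 focal adhesion and actin genes, 2 further lists of adhesion and actin genes, all tested genes, and tested genes with a mean of at least 10 FPKM. The members stand at 36.4%, 31.8% and 45.5%, all tested genes at 26.7%, 12.4% and 27.1%, and the tested genes of at least 10 FPKM at 33.8%, 18.9% and 34.4%.

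The counts against shNT depended on single libraries. With shPcyt2-1, 16 members passed, but 6 did without the second shNT library, 2 without the first shPcyt2-1 library and 6 without the second. With shPcyt2-2, 14 passed, but 5 did without the second shNT library, 1 without the first shPcyt2-2 library, 4 without the second, and 9 without either shPcyt2-1 library. Between the hairpins, 20 passed, 10 without the first and 13 without the second shPcyt2-1 library, and 12 without the first and 10 without the second shPcyt2-2 library. TRIP6 was the 1 member whose difference from shNT passed under every alternative run, with shPcyt2-1, and no member had such a difference with shPcyt2-2. Between the hairpins, 9 members passed under every alternative that gave them a value: FERMT1, FERMT2, PXN, BCAR1, ARHGEF7, ZYX, TNS4, MYL9 and CAPN2.

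**Figure D2:**
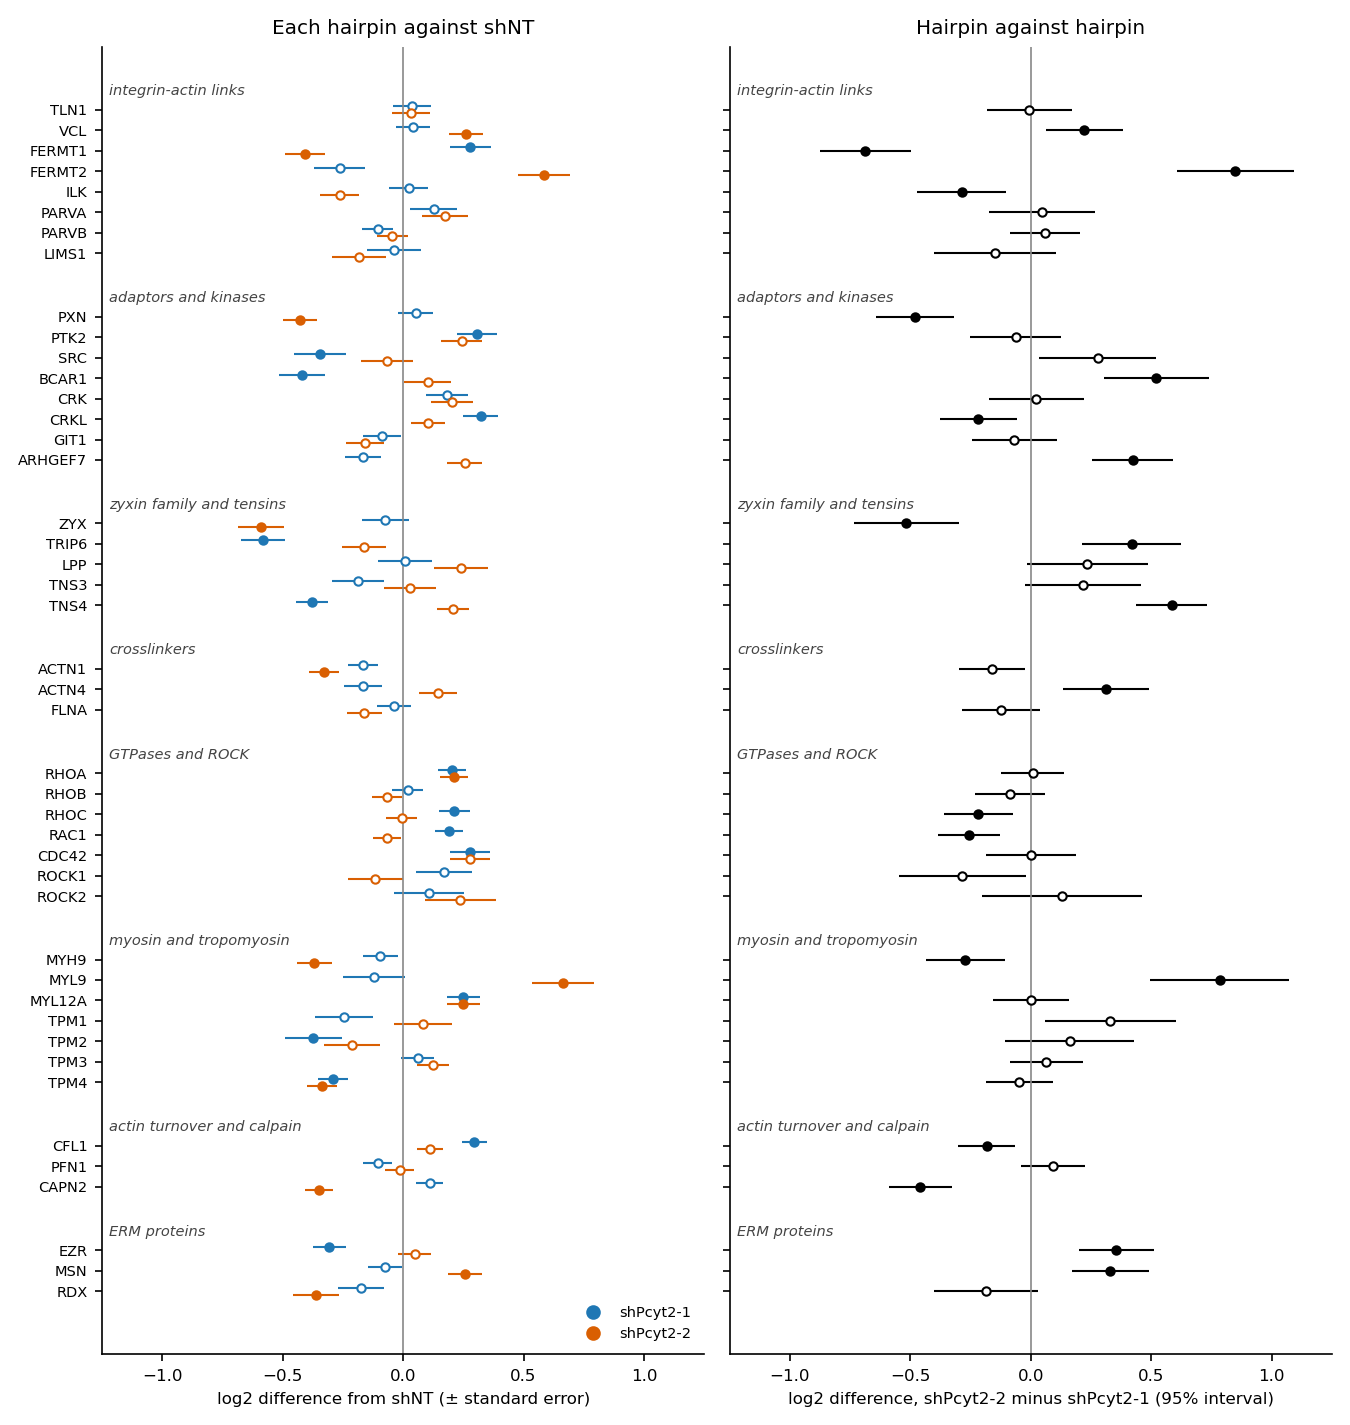
Left, log2 difference of each of the 44 genes from shNT with shPcyt2-1 (blue) and shPcyt2-2 (orange), bars ± standard error; right, shPcyt2-2 minus shPcyt2-1 with its 95% interval. Filled points have an adjusted p under 0.05; on the right FERMT1 (-0.69) and FERMT2 (0.85) lie farthest from 0 in opposite directions.

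Of the 44 genes, 37 had a promoter sequence in RefSeq (GRCh38.p14), and the 250 bases before the RefSeq start were searched for the sites of 2 factors that control cytoskeletal genes: the CArG box bound by SRF, and the letters GGAATG or CATTCC, which bind the TEAD partners of YAP1, on both strands. A CArG box was found in 4 members (10.8%), compared with 1.14% of all 27305 promoters. These are the stretches around it, in capitals, on the strand of the gene, shown because TPM4 fell with both hairpins and CAPN2 with 1, while FLNA and ROCK2 passed in no comparison.
TPM4: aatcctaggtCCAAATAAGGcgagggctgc
CAPN2: cattatattcCCTTATTTGGtcccaggcag
FLNA: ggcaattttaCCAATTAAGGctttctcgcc
ROCK2: aaatgtacttCCTTAAATGGgtttactggg
They lie at chr19:16067355-16067384 (plus strand), chr1:223701489-223701518 (plus strand), chrX:154374709-154374738 (minus strand) and chr2:11345491-11345520 (minus strand). The starts are those of RefSeq, which can differ from the GENCODE bounds used for gene positions elsewhere in the text. By the GENCODE bounds the boxes of CAPN2 and FLNA lie before the gene, and those of TPM4 and ROCK2 lie inside it.

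The TEAD letters were found in 5 members (13.5%), compared with 11.9% of all promoters: TRIP6, VCL, MYH9, PFN1 and ROCK2. The 3 that passed in some comparison are shown with the letters in capitals.
TRIP6: ccctcccccaGGAATGtggtgacgtc
VCL: ccctcccttaGGAATGggggaggggc
MYH9: ctcccggctgGGAATGgtcccgcggc
Their positions are chr7:100867308-100867333 (plus strand), chr10:73997935-73997960 (plus strand) and chr22:36388022-36388047 (minus strand), and each lies before the RefSeq start but inside the GENCODE bounds of its gene. A match of letters describes the sequence and was not tested as a site. SRF itself and its coactivators MRTFA and MRTFB, the genes of that pathway that could be tested, passed in none of the 3 comparisons in limma, and 0 of them had an unadjusted p under 0.05.

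The members spanned a wide range of levels. PFN1, profilin 1, which feeds actin monomers to growing filaments, was the most abundant at 952 FPKM, followed by CFL1, cofilin 1, which severs old filaments, at 456 FPKM. ACTN4 (251 FPKM), FLNA (251 FPKM) and RHOA (234 FPKM) came next, and the ranges of ACTN4 (219 to 288 FPKM) and FLNA (224 to 278 FPKM) over the 6 libraries overlapped. At the other end stood MYL9 (2.80 FPKM), TPM2 (2.55 FPKM) and LPP (1.62 FPKM), at percentiles 26.7, 24.8 and 16.2 of the tested genes.

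**Figure D3:**
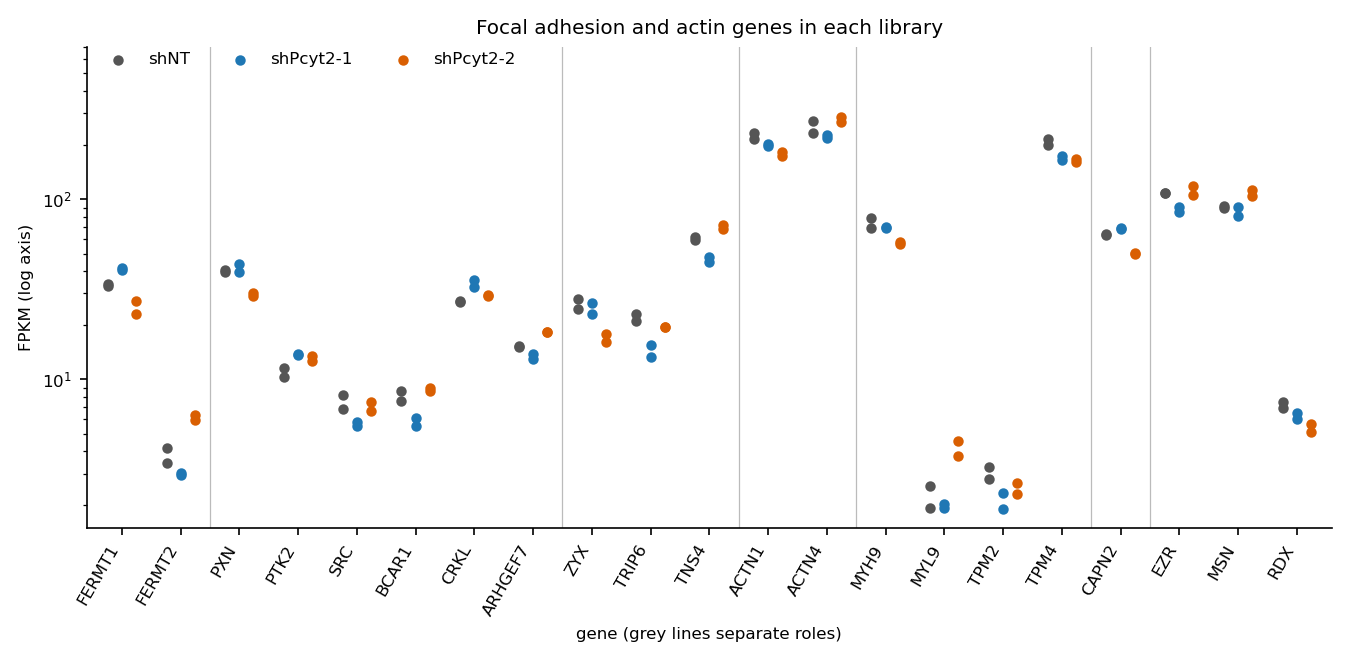
FPKM (log axis) of the 21 members that passed in at least 1 comparison with a log2 difference of 0.3 or more, each point 1 library, with shNT in grey, shPcyt2-1 in blue and shPcyt2-2 in orange. The 2 shPcyt2-2 libraries lie below the other 4 for PXN (28.98 and 30.04) and ZYX (16.1 and 17.9) and above them for FERMT2 (5.99 and 6.36) and MYL9 (4.55 and 3.76).

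Among the links between integrins and actin, 1 of 8 genes passed with shPcyt2-1, 3 with shPcyt2-2 and 4 between the hairpins (26.7%, 12.4% and 27.1% of all tested genes), and the largest changes were those of the kindlins, which bind the integrin beta tail and help talin to activate it. FERMT1 (kindlin-1, ENSG00000101311, chr20:6074845-6123544), the kindlin of epithelia, was at 34.1 and 33.05 FPKM with shNT, 41.5 and 40.3 FPKM with shPcyt2-1, and 27.2 and 23.1 FPKM with shPcyt2-2. The 3 groups did not overlap, with shPcyt2-1 highest and shPcyt2-2 lowest. FERMT1 rose with shPcyt2-1 (log2 difference 0.28, standard error 0.084, limma adjusted p = 0.0381) and fell with shPcyt2-2 (-0.41, standard error 0.084, limma adjusted p = 0.0187). It was the 1 member that passed with both hairpins in opposite directions, and the hairpins differed by -0.69 (95% interval -0.88 to -0.50, limma adjusted p = 0.000707). The rise with shPcyt2-1 was lost when any 1 of the shNT or shPcyt2-1 libraries was left out. It was also lost under median-ratio scaling, after the GC and length trend was removed, without the variance trend and with no filter on low values. The fall with shPcyt2-2 was lost without the second shNT or the second shPcyt2-2 library and with no filter on low values.

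FERMT2 (kindlin-2, ENSG00000073712, chr14:52857268-52952435), the more widely expressed kindlin of mesenchymal cells, moved the other way. It was at 4.17 and 3.42 FPKM with shNT, 3.02 and 2.95 FPKM with shPcyt2-1, and 5.99 and 6.36 FPKM with shPcyt2-2. Again the groups did not overlap, but here shPcyt2-2 was highest. FERMT2 rose with shPcyt2-2 (log2 difference 0.58, standard error 0.107, limma adjusted p = 0.0133), its value with shPcyt2-1 was -0.26 (limma adjusted p = 0.0978), and the hairpins differed by 0.85 (95% interval 0.61 to 1.09, limma adjusted p = 0.000846), a ratio of 2.07. The rise against shNT was lost without the second shNT library, without either shPcyt2-2 library and with no filter on low values. The difference between the hairpins passed in every alternative that gave it a value. In FPKM, FERMT1 exceeded FERMT2 8.17- and 9.65-fold in the shNT libraries, 13.8- and 13.7-fold with shPcyt2-1, and 4.54- and 3.63-fold with shPcyt2-2.

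**Figure D4:**
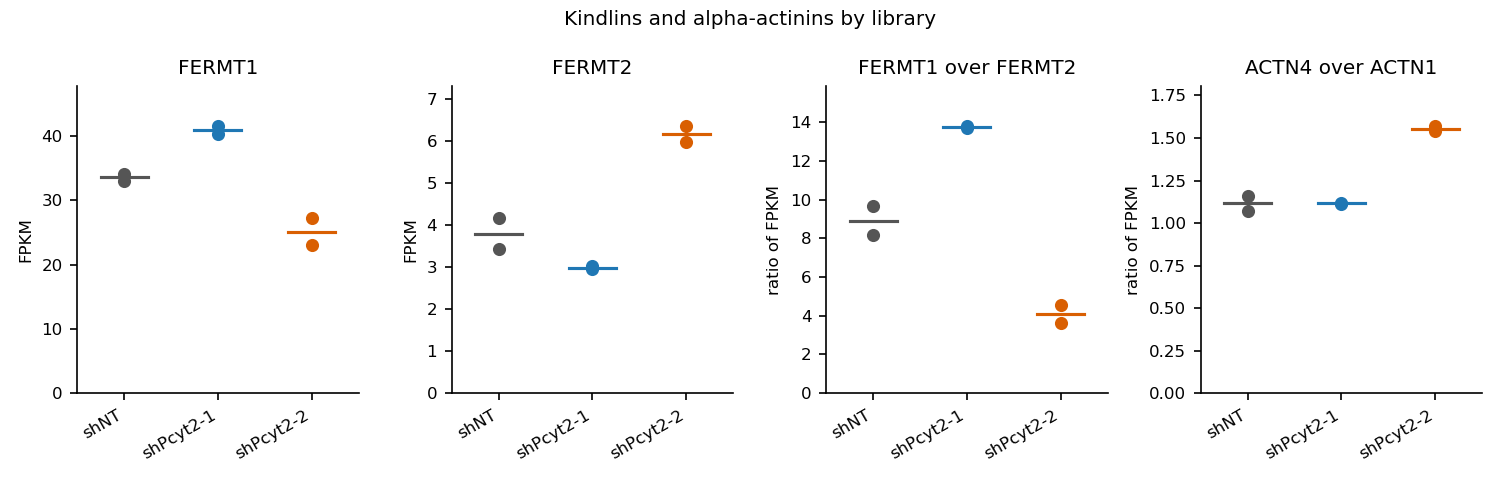
FPKM of FERMT1 and FERMT2 and the ratios FERMT1 over FERMT2 and ACTN4 over ACTN1, each point 1 library and each bar the mean of 2 libraries. The kindlin ratio is highest with shPcyt2-1 (13.8 and 13.7) and lowest with shPcyt2-2 (4.54 and 3.63), and the alpha-actinin ratio is highest with shPcyt2-2 (1.57 and 1.54).

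The remaining links changed little. VCL, vinculin, was at 15.5 and 15.6 FPKM with shNT and 18.7 and 19.0 FPKM with shPcyt2-2, a rise of 0.26 on the log2 scale (limma adjusted p = 0.044) that did not pass in any fit with 1 library left out. ILK, the scaffold that joins kindlin to the parvins, was lower with shPcyt2-2 (21.8 and 22.0 FPKM) than with shPcyt2-1 (24.99 and 29.01 FPKM), a log2 difference of -0.29 (limma adjusted p = 0.0299). TLN1, talin 1, had differences of 0.038 with shPcyt2-1 (95% interval -0.14 to 0.22) and 0.032 with shPcyt2-2 (95% interval -0.15 to 0.21). PARVA, PARVB and LIMS1, the partners of ILK, passed in no comparison.

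Among the signaling adaptors and kinases, 2 of 8 genes rose and 2 fell with shPcyt2-1, where 26.7% of all tested genes passed. With shPcyt2-2, 1 of the 8 passed (12.5%), close to the 12.4% of all tested genes. PXN, paxillin (ENSG00000089159, chr12:120210439-120265771, minus strand), the adaptor whose clusters the study stained, was at 39.5 and 40.6 FPKM with shNT, 39.5 and 43.7 FPKM with shPcyt2-1, and 28.98 and 30.04 FPKM with shPcyt2-2. Both shPcyt2-2 libraries lay below the other 4, whereas the shPcyt2-1 and shNT libraries overlapped. PXN fell with shPcyt2-2 (log2 difference -0.43, standard error 0.072, limma adjusted p = 0.00952), and its value with shPcyt2-1 was 0.052 (95% interval -0.11 to 0.21, limma adjusted p = 0.62). The fall was lost without the first shPcyt2-2 library and with no filter on low values. The hairpins differed by -0.48 (95% interval -0.64 to -0.32, limma adjusted p = 0.00184). These are RNA values and do not measure the clustering of the paxillin protein.

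BCAR1, which encodes p130Cas, a stretch-sensitive docking protein phosphorylated by Src, was at 7.64 and 8.63 FPKM with shNT, 5.53 and 6.12 FPKM with shPcyt2-1, and 8.61 and 8.96 FPKM with shPcyt2-2. Here the shPcyt2-1 libraries were the low ones, and shNT and shPcyt2-2 overlapped. BCAR1 fell with shPcyt2-1 (log2 difference -0.42, standard error 0.096, limma adjusted p = 0.0144) and was higher with shPcyt2-2 than with shPcyt2-1 (0.52, limma adjusted p = 0.00489); the fall did not pass without the second shNT library or the first shPcyt2-1 library. The kinase gene SRC also had its low libraries with shPcyt2-1. It was at 6.81 and 8.18 FPKM with shNT, 5.81 and 5.52 FPKM with shPcyt2-1, and 7.49 and 6.69 FPKM with shPcyt2-2. It fell with shPcyt2-1 (-0.35, limma adjusted p = 0.042), and that call held in 1 of the 6 fits with 1 library left out.

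CRKL, an adaptor that binds phosphorylated p130Cas and paxillin, went up where BCAR1 went down. It was at 27.3 and 26.8 FPKM with shNT, 32.5 and 35.6 FPKM with shPcyt2-1, and 29.3 and 28.95 FPKM with shPcyt2-2, without overlap between the groups. CRKL rose with shPcyt2-1 (log2 difference 0.32, standard error 0.071, limma adjusted p = 0.0124), a call lost without the second shPcyt2-1 library. PTK2, focal adhesion kinase, was at 11.5 and 10.3 FPKM with shNT, 13.8 and 13.6 FPKM with shPcyt2-1, and 13.5 and 12.7 FPKM with shPcyt2-2. All 4 knockdown libraries lay above both shNT libraries, and the rise passed with shPcyt2-1 (0.31, limma adjusted p = 0.028). This rise was lost without the second shNT library or either shPcyt2-1 library. It was also lost with no filter on low values, under median-ratio scaling and after the GC and length trend was removed. ARHGEF7 (beta-PIX), an exchange factor for Rac and Cdc42 that docks on paxillin through GIT1, was at 15.3 and 15.1 FPKM with shNT, 13.0 and 13.9 FPKM with shPcyt2-1, and 18.3 and 18.4 FPKM with shPcyt2-2. The hairpins lay on opposite sides of shNT and differed by 0.42 (limma adjusted p = 0.00391). Neither passed against shNT (-0.17 with shPcyt2-1 and 0.25 with shPcyt2-2, limma adjusted p = 0.123 and 0.0546). CRK and GIT1 passed in no comparison.

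In the zyxin family and the tensins, 2 of 5 genes, TRIP6 and TNS4, fell with shPcyt2-1 (10.1% of all tested genes did) and 1, ZYX, with shPcyt2-2 (4.74% of all tested genes did). ZYX, zyxin (chr7:143381080-143391111), which marks mature adhesions and stress fibers under tension, was at 24.5 and 27.8 FPKM with shNT, 23.1 and 26.4 FPKM with shPcyt2-1, and 16.1 and 17.9 FPKM with shPcyt2-2. Both shPcyt2-2 libraries lay below the other 4, which overlapped. ZYX fell with shPcyt2-2 (log2 difference -0.59, standard error 0.096, limma adjusted p = 0.00901), the largest fall of any member with that hairpin, and its value with shPcyt2-1 was -0.074 (95% interval -0.29 to 0.14). Without the first shPcyt2-2 library, or with no filter on low values, the fall did not pass. The hairpins differed by -0.52 (limma adjusted p = 0.00502).

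TRIP6 (chr7:100867138-100873454), a zyxin relative with the same zinc-binding LIM domains, showed the opposite choice of hairpin. It was at 21.1 and 23.0 FPKM with shNT, 13.2 and 15.6 FPKM with shPcyt2-1, and 19.5 and 19.7 FPKM with shPcyt2-2. The shPcyt2-1 libraries lay well below the other 4. TRIP6 fell with shPcyt2-1 (log2 difference -0.58, standard error 0.091, limma adjusted p = 0.0035), the largest fall of any member with that hairpin, and its value with shPcyt2-2 was -0.16 (95% interval -0.37 to 0.043). The hairpins differed by 0.42 (limma adjusted p = 0.0102).

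TNS4 (tensin 4 or Cten), a short tensin that lacks the actin-binding part and is raised in many colorectal tumors, was at 59.6 and 61.5 FPKM with shNT, 44.7 and 48.0 FPKM with shPcyt2-1, and 72.0 and 68.0 FPKM with shPcyt2-2. The groups did not overlap, with shPcyt2-1 lowest and shPcyt2-2 highest. TNS4 fell with shPcyt2-1 (log2 difference -0.38, standard error 0.066, limma adjusted p = 0.00491), its value with shPcyt2-2 was 0.21 (limma adjusted p = 0.0708), and the hairpins differed by 0.58 (limma adjusted p = 0.000523). Its fall against shNT did not pass without the first shPcyt2-1 library. LPP and TNS3 passed in no comparison.

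Of the 3 crosslinkers, the alpha-actinins parted with shPcyt2-2. ACTN1 was at 216 and 235 FPKM with shNT, 198 and 204 FPKM with shPcyt2-1, and 184 and 175 FPKM with shPcyt2-2. The groups did not overlap and shPcyt2-2 was lowest, with a log2 difference from shNT of -0.33 (standard error 0.061, limma adjusted p = 0.0143). The call of ACTN1 was lost without the second shNT library, either shPcyt2-2 library, the filter on low values or the variance trend. ACTN4, its close paralog, was at 232 and 273 FPKM with shNT, 219 and 228 FPKM with shPcyt2-1, and 288 and 269 FPKM with shPcyt2-2. ACTN4 passed only between the hairpins (0.31, limma adjusted p = 0.0184), and the 2 shNT libraries of ACTN4 spread more widely than either hairpin's. In FPKM the ratio of ACTN4 to ACTN1 was 1.07 and 1.16 with shNT, 1.11 and 1.12 with shPcyt2-1, and 1.57 and 1.54 with shPcyt2-2. FLNA, filamin A, which joins crossing filaments, passed in no comparison.

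Of the GTPase and ROCK genes, 4 of 7 rose with shPcyt2-1 (16.5% of all tested genes did) and none fell (10.1% of all tested genes did), and 1 passed with shPcyt2-2 (12.4% of all tested genes). RHOA, which drives stress fibers and contraction, was at 218 and 207 FPKM with shNT, 237 and 252 FPKM with shPcyt2-1, and 244 and 248 FPKM with shPcyt2-2. All 4 knockdown libraries lay above both shNT libraries, and RHOA rose by a log2 difference of 0.20 with shPcyt2-1 and 0.21 with shPcyt2-2 (limma adjusted p = 0.032 and 0.046). CDC42, which directs filopodia and polarity, was at a mean of 11.2 FPKM with shNT and 13.8 FPKM with each hairpin, and rose with shPcyt2-1 (0.28, limma adjusted p = 0.0371). Its value with shPcyt2-2 was also 0.28 but did not pass (limma adjusted p = 0.0585). RAC1, which drives lamellipodia, and RHOC, a relative of RHOA linked to invasion, rose with shPcyt2-1 (0.19 and 0.21, limma adjusted p = 0.0391 and 0.0371) and were lower with shPcyt2-2 than with shPcyt2-1 (-0.26 and -0.22, limma adjusted p = 0.0113 and 0.0319). None of these 4 rises with shPcyt2-1 passed without the second shNT library or under median-ratio scaling, and after the GC and length trend was removed only that of RHOC passed. RHOB, ROCK1 and ROCK2 passed in no comparison.

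Among the myosin and tropomyosin genes, 3 of 7 passed with shPcyt2-1 and 4 with shPcyt2-2 (26.7% and 12.4% of all tested genes). MYH9, the heavy chain of nonmuscle myosin IIA, the motor of stress fibers, was at 69.5 and 79.2 FPKM with shNT, 68.9 and 69.8 FPKM with shPcyt2-1, and 58.2 and 56.3 FPKM with shPcyt2-2. Both shPcyt2-2 libraries lay below the other 4, and MYH9 fell with that hairpin (log2 difference -0.37, standard error 0.073, limma adjusted p = 0.0162). This fall was lost without the second shNT library, without either shPcyt2-2 library and with no filter on low values.

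MYL9 (chr20:36541484-36551447), a regulatory light chain best known from smooth muscle, was at 1.94 and 2.58 FPKM with shNT, 1.94 and 2.03 FPKM with shPcyt2-1, and 4.55 and 3.76 FPKM with shPcyt2-2. Both shPcyt2-2 libraries lay above the other 4. MYL9 rose with shPcyt2-2 (log2 difference 0.66, standard error 0.128, limma adjusted p = 0.0151), its value with shPcyt2-1 was -0.12 (limma adjusted p = 0.51), and the hairpins differed by 0.78 (limma adjusted p = 0.00278), a ratio of 2.09. The rise against shNT was lost without the first shPcyt2-2 library and with no filter on low values. A smooth muscle marker singled out after its values were seen, DES (desmin, the intermediate filament of muscle), was also highest with shPcyt2-2. It was at 1.19 and 1.40 FPKM with shNT, 0.343 and 0.314 FPKM with shPcyt2-1, and 3.28 and 3.24 FPKM with shPcyt2-2, a log2 difference of -0.78 with the first hairpin and 0.90 with the second (limma adjusted p = 0.00187 and 0.00296). TAGLN, transgelin, another actin-binding protein of smooth muscle, rose with shPcyt2-2 (0.64, limma adjusted p = 0.022), a call lost when either shNT library or the second shPcyt2-2 library was left out. Its value with shPcyt2-1 was 0.42 (limma adjusted p = 0.0511), which passed after the GC and length trend was removed, with both libraries above shNT, and the hairpins did not pass against each other (0.22, limma adjusted p = 0.275). The other smooth muscle markers did not pass with shPcyt2-2 or were too low to test: ACTA2 was at 2.94 and 3.79 FPKM with shNT, 2.97 and 3.07 FPKM with shPcyt2-1, and 3.29 and 3.76 FPKM with shPcyt2-2, SMTN averaged 38.4 FPKM, and MYH11, CNN1, ACTG2 and MYOCD did not exceed 0.086 FPKM in any library. The part of smooth muscle genes in the rise of MYL9 was not tested. MYL12A, a nonmuscle light chain of the same family, was at 148 and 129 FPKM with shNT, 164 and 164 FPKM with shPcyt2-1, and 165 and 163 FPKM with shPcyt2-2. It rose by 0.25 with each hairpin (limma adjusted p = 0.029 and 0.0469), and neither rise passed without the second shNT library or after the GC and length trend was removed.

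TPM4 (chr19:16067021-16103005), a tropomyosin that lets myosin act on stress fibers, was the 1 member that fell with both hairpins. It was at 215 and 200 FPKM with shNT, 165 and 174 FPKM with shPcyt2-1, and 162 and 167 FPKM with shPcyt2-2. Both shNT libraries were higher than any knockdown library. The log2 difference was -0.29 with shPcyt2-1 (standard error 0.061, limma adjusted p = 0.0103) and -0.34 with shPcyt2-2 (standard error 0.061, limma adjusted p = 0.0125), and both passed after the GC and length trend was removed and without the second shNT library. The call with shPcyt2-1 was lost without the first shPcyt2-1 library, and that with shPcyt2-2 was lost without either shPcyt2-2 library and with no filter on low values. TPM4 carries the CArG box printed above, 164 to 173 bases before its RefSeq start and inside its GENCODE bounds. TPM2, a low-abundance tropomyosin, was at 2.81 and 3.26 FPKM with shNT, 1.91 and 2.33 FPKM with shPcyt2-1, and 2.65 and 2.32 FPKM with shPcyt2-2, and it fell with shPcyt2-1 (-0.37, limma adjusted p = 0.0451), a call that held in none of the 6 fits with 1 library left out. TPM1 and TPM3 passed in no comparison, and the ratio of TPM4 to TPM3 went from 3.59 and 3.29 with shNT to 2.68 and 2.70 with shPcyt2-1 and 2.34 and 2.65 with shPcyt2-2.

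Of the genes of turnover, CFL1 was at 404 and 424 FPKM with shNT, 515 and 500 FPKM with shPcyt2-1, and 446 and 449 FPKM with shPcyt2-2, without overlap between the groups. It rose with shPcyt2-1 (log2 difference 0.29, standard error 0.052, limma adjusted p = 0.00518), a call lost under median-ratio scaling and without the first shPcyt2-1 library. CAPN2, the large subunit of m-calpain, which cuts talin and other proteins when adhesions come apart, was at 64.0 and 63.6 FPKM with shNT, 69.1 and 68.7 FPKM with shPcyt2-1, and 49.7 and 50.1 FPKM with shPcyt2-2. The groups did not overlap, and shPcyt2-2 was lowest. CAPN2 fell with shPcyt2-2 (-0.35, standard error 0.058, limma adjusted p = 0.0093), and the hairpins differed by -0.46 (limma adjusted p = 0.000832). Its fall against shNT was lost without the first shPcyt2-2 library. PFN1 passed in no comparison.

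The ERM proteins tether the plasma membrane to the cortical actin beneath it. Differences among the 3 genes were not tested. EZR, ezrin, was at 108 and 108 FPKM with shNT, 84.5 and 90.3 FPKM with shPcyt2-1, and 106 and 118 FPKM with shPcyt2-2, and fell with shPcyt2-1 (log2 difference -0.31, standard error 0.068, limma adjusted p = 0.0129). This fall was lost without the first shPcyt2-1 library and with no filter on low values. MSN, moesin, was at 91.4 and 89.4 FPKM with shNT, 81.2 and 90.7 FPKM with shPcyt2-1, and 104 and 112 FPKM with shPcyt2-2, and rose with shPcyt2-2 (0.26, limma adjusted p = 0.0468). RDX, radixin, was at 7.51 and 6.98 FPKM with shNT, 6.55 and 6.05 FPKM with shPcyt2-1, and 5.69 and 5.14 FPKM with shPcyt2-2, and fell with shPcyt2-2 (-0.36, limma adjusted p = 0.041). The shPcyt2-1 libraries were the low ones for EZR, the shPcyt2-2 libraries the high ones for MSN, and for RDX the groups did not overlap, with shNT highest. The calls of MSN and RDX held in none of the fits with 1 library left out. Both EZR (0.35) and MSN (0.33) were higher with shPcyt2-2 than with shPcyt2-1 (limma adjusted p = 0.00589 and 0.00941).

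The comparisons of each hairpin with shNT share the same 2 control libraries, so their values are set side by side here without a measure of overlap. TPM4 fell and RHOA and MYL12A rose with both hairpins, and FERMT1 changed in opposite directions. The rise of FERMT1 with shPcyt2-1 was lost under median-ratio scaling and after the GC and length trend was removed. With either hairpin, the rises of RHOA and MYL12A held in 1 of the 6 fits with 1 library left out and were lost under median-ratio scaling and after the GC and length trend was removed, whereas the falls of TPM4 held in 5 and 4 of the 6 fits and in both of those settings. With the hairpins pooled as 4 knockdown libraries against 2 shNT libraries, no member passed in limma, where 0.00784% of all tested genes did (1 gene), and 9 of the 44 members had an unadjusted p under 0.05, as did 2128 of the 12756 tested genes. For TPM4 the pooled log2 difference was -0.31 (standard error 0.068, limma adjusted p = 0.148), for MYL12A it was 0.25 (limma adjusted p = 0.192), and for PCYT2 itself -0.80 (limma adjusted p = 0.115). In the fit with 3 groups, where the difference between the hairpins does not count as spread, 11 members and 2142 genes passed for their average. All 4 knockdown libraries lay above both shNT libraries in 10 members and below them in 5, or 15 of 44, where 30.2% of all tested genes did not overlap.

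Against shNT, members with more GC had lower log2 differences. Over the 44 members the Pearson correlation of GC content with the log2 difference was -0.41 for shPcyt2-1 and -0.29 for shPcyt2-2, and over the tested genes it was -0.41 and -0.43. Between the hairpins it was 0.046 over the members and 0.047 over the tested genes. These are descriptions across genes that share the same libraries. With the trend on GC content and length removed from each library, 10 of the 16 calls with shPcyt2-1 held (PTK2, FERMT1, RHOA, RAC1, CDC42 and MYL12A, all rises, did not), as did 10 of the 14 with shPcyt2-2 (VCL, RHOA, MYL12A and MSN did not) and 19 of the 20 between the hairpins (CRKL did not).

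**Figure D5:**
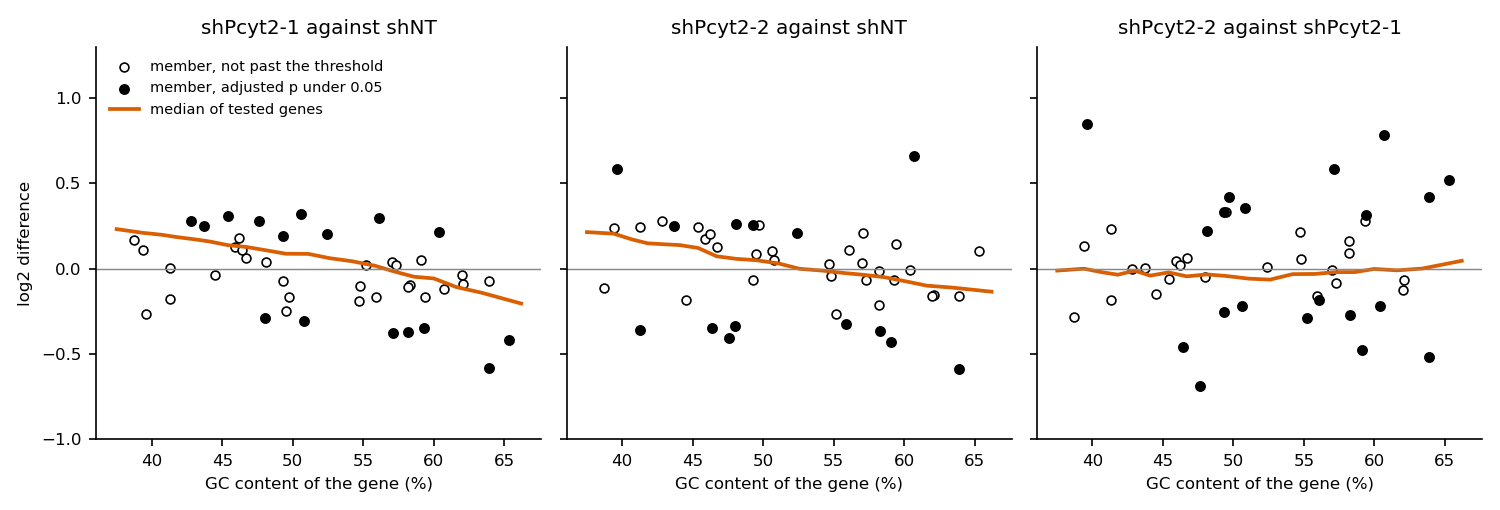
Log2 difference of the 44 genes against the GC content (%) of the gene in the 3 comparisons, filled points with an adjusted p under 0.05; the orange line joins the medians of the tested genes in 20 bins of GC content. The line falls in both comparisons with shNT and stays near 0 between the hairpins, where the members' correlation with GC content was 0.046.

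Further genes of the same structures were taken from lists by role. Of 38 other adhesion adaptors, 33 were tested, and 5 rose and 4 fell with shPcyt2-1 while 2 rose and 3 fell with shPcyt2-2 (median log2 differences -0.0235 and 0.028). Their shares past the threshold against shNT, 27.3% and 15.2%, were near those of all tested genes (26.7% and 12.4%). Between the hairpins 14 of the 33 passed, or 42.4%, where 27.1% of all tested genes did. With shPcyt2-1 the largest rises were those of CAV1 (caveolin 1, 0.65, limma adjusted p = 0.00883), LPXN (leupaxin, a paxillin relative, 0.53, limma adjusted p = 0.00501) and TES (testin, a LIM protein that binds zyxin, 0.43, limma adjusted p = 0.00387), whereas FHL1 fell (-0.38, limma adjusted p = 0.0188). With shPcyt2-2, SORBS3 (vinexin, a partner of vinculin) fell by 0.69 on the log2 scale (limma adjusted p = 0.00803) and PAK4, a kinase downstream of CDC42, by 0.58 (limma adjusted p = 0.00471). EVL, of the Ena/VASP family that lengthens filaments at adhesions, fell with both hairpins (-0.30 and -0.39, limma adjusted p = 0.039 and 0.0282). The first of these calls was lost when any 1 of the shNT or shPcyt2-1 libraries was left out, and the second without the second shNT library or either shPcyt2-2 library. The fall of FHL1 did not pass without the first shNT or the first shPcyt2-1 library, nor did those of SORBS3 and PAK4 without the first shPcyt2-2 library.

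Of 65 other actin regulators, 63 were tested, and 18 rose and 9 fell with shPcyt2-1 while 13 rose and 5 fell with shPcyt2-2 (median log2 differences 0.0951 and 0.136, compared with 0.0669 and 0.0438 for all tested genes). Their shares past the threshold were 42.9% and 28.6%, compared with 26.7% and 12.4% of all tested genes. Between the hairpins 41.3% passed, where 27.1% of all tested genes did. ARPC1A, a subunit of the Arp2/3 complex that branches actin, had mean values of 72.9 FPKM with shNT, 118 FPKM with shPcyt2-1 and 50.6 FPKM with shPcyt2-2. It rose with the first hairpin (0.69, limma adjusted p = 0.000366) and fell with the second (-0.52, limma adjusted p = 0.00261), the same directions as FERMT1. CALD1, caldesmon, which restrains myosin on actin, fell with shPcyt2-1 (-0.71, limma adjusted p = 0.00157) and rose with shPcyt2-2 (0.38, limma adjusted p = 0.029). The rise was lost without the second shNT library, without the first shPcyt2-2 library and with no filter on low values, whereas the difference between the hairpins (1.095, limma adjusted p = 0.000124) passed in every alternative run. CFL2, the muscle form of cofilin, rose by 1.097 with shPcyt2-1 and 0.50 with shPcyt2-2 (limma adjusted p = 0.000722 and 0.0239), and the second of these calls was lost when any 1 of the shNT or shPcyt2-2 libraries was left out. PLS1, a bundling protein of microvilli, rose with both hairpins (0.63 and 0.61, limma adjusted p = 0.00448 and 0.011), and MYH14, the heavy chain of nonmuscle myosin IIC, fell with both (-0.67 and -0.50, limma adjusted p = 0.00129 and 0.00905). With shPcyt2-2 both calls were lost without the first shPcyt2-2 library and with no filter on low values, and that of PLS1 also without the second shNT library.

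Of 12 integrin genes, the receptors that kindlins and talin bind, 10 were tested. With shPcyt2-1, 4 rose and 3 fell, with shPcyt2-2, 2 rose, and between the hairpins 4 passed, where 26.7%, 12.4% and 27.1% of all tested genes did. ITGB1 was at 67.4 and 59.8 FPKM with shNT, 114 and 112 FPKM with shPcyt2-1, and 77.4 and 68.7 FPKM with shPcyt2-2, without overlap between the groups. It rose with shPcyt2-1 (0.82, limma adjusted p = 0.000578), and its value with shPcyt2-2 was 0.20 (limma adjusted p = 0.129). ITGA2, an alpha chain of collagen receptors, was at 5.57 and 4.90 FPKM with shNT, 9.57 and 9.19 FPKM with shPcyt2-1, and 4.23 and 3.38 FPKM with shPcyt2-2. It rose with shPcyt2-1 (0.74, limma adjusted p = 0.00306), its value with shPcyt2-2 was -0.38 (limma adjusted p = 0.0574), which passed after the GC and length trend was removed, and the hairpins differed by -1.12 (limma adjusted p = 0.000331). ITGA6, an alpha chain of laminin receptors, rose with both hairpins (0.49 and 0.33, limma adjusted p = 0.00269 and 0.0231), the second of which did not pass without the second shNT or the first shPcyt2-2 library. ITGA5 was at 30.8 and 30.9 FPKM with shNT, 26.0 and 26.4 FPKM with shPcyt2-1, and 47.4 and 51.8 FPKM with shPcyt2-2, so it fell with the first hairpin (-0.22, limma adjusted p = 0.0411) and rose with the second (0.67, limma adjusted p = 0.00199). The fall did not pass when any 1 of the shNT or shPcyt2-1 libraries was left out. ITGA3 (-0.51, limma adjusted p = 0.00252) and ITGB5 (-0.34, limma adjusted p = 0.00736) fell with shPcyt2-1, the latter not without the first shPcyt2-1 library.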

How the data were processed

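RNA-Seq libraries of SW480 cells were analyzed from the 6 tables of FPKM that the authors deposited, 1 per library. The unit was read from the values, and TPM over part of the genes cannot be told apart from it. The aligner and counter are not given in the sources used here. The submitters' processing notes name the builds GRCh38, GRCm38 and mm10, and the labels list 2 library kits with no statement of their use. The tables list only values above 0.

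The 21539 identifiers came down to 19746 genes after 115 with repeated rows were summed and 999 sets with the same values in all libraries were joined; BCAR1, ZYX and ACTN4 each include a merged identifier. RHOA, RAC1, CDC42, CFL1, PFN1, TPM3 and MYL12A have near-identical copies in the genome, and how the authors' counting split shared reads is not given, so their levels are uncertain. Limma 3.58.1 (R 4.3.3) was fitted, with its variance trend on, to log2(FPKM + 1) where a gene averaged 0.5 or more, with 3 groups for each hairpin and their difference and 2 groups for the pooled comparison. The study's own count-based test needs counts and was not used. The members and lists were chosen with earlier results of these data known. Values in each library are given for PCYT2, PXN and members that passed with a log2 difference of at least 0.3, and for some members with smaller changes (VCL, ILK, RHOA, MYL12A, CFL1), chosen after their values were seen. Named adhesion adaptors, actin regulators and integrins are among the 4 largest changes each way with at least 1 hairpin. Markers of other cells were named to check the cell type or beside a member, after their values were seen. Alternatives covered the pseudocount (0.1), the expression limit (none, or 5 FPKM), scaling, GC content and length, the variance model, the replicate number as a block, repeated rows and each library left out.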

Additional observations from a re-analysis of the deposited data

Results flagged for a closer look

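The hairpins share a target, yet 20 of the 44 members differed between them by the direct test in limma, where 27.1% of all tested genes did. Values are log2 differences, shPcyt2-2 minus shPcyt2-1. Higher with shPcyt2-2 were FERMT2 (0.848), MYL9 (0.783), TNS4 (0.584), BCAR1 (0.52), ARHGEF7 (0.422), TRIP6 (0.418), EZR (0.355), MSN (0.33), ACTN4 (0.313) and VCL (0.222). Lower with shPcyt2-2 were FERMT1 (-0.687), ZYX (-0.516), PXN (-0.48), CAPN2 (-0.458), ILK (-0.287), MYH9 (-0.272), RAC1 (-0.256), RHOC (-0.219), CRKL (-0.218) and CFL1 (-0.183). PCYT2 itself did not pass between the hairpins (means of 7.23 and 6.44 FPKM). Across the 4 knockdown libraries, none of 45 genes examined (the members and PCYT2) had a library far from the other 3, a rule that chance meets in about 1 of 20 groups. These 4 libraries hold both hairpins, and a difference between the hairpins can hide 1 outlying library, so the count does not show that single libraries agree.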

How the results depend on the processing

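No called member value changed direction under any alternative. Of the 2682 recomputed values of single genes, 2138 kept direction and side of the threshold, 517 no longer passed, 17 newly passed and 10 changed sign; for all of them the cause was not tested unless the setting itself removed libraries or genes. Depth in reads is unknown, and 2 libraries per group limit every count.

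With shPcyt2-1 (16 members, 3400 genes), 6 members and 1831 genes passed without a filter on low values, 10 members with median-ratio scaling and 10 without the variance trend. The 8 member calls lost with median-ratio scaling were all rises. With shPcyt2-2 (14 members, 1585 genes), 1 member and 124 genes passed without the filter, and 9 members and 1027 genes without the variance trend. Between the hairpins (20 members), 13 passed without the variance trend. Pooled, 1 gene passed; 0 did with a pseudocount of 0.1 and 0 with a mean of at least 5 FPKM, 7 did without the filter, and 2142 (11 members) with the mean of the hairpins from 3 groups.

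When 1 library at a time was left out, the counts ranged from 2 to 16 members and 1147 to 3256 genes with shPcyt2-1, from 1 to 14 members and 125 to 1893 genes with shPcyt2-2, from 10 to 21 members and 1662 to 3785 genes between the hairpins, and from 0 to 1 genes pooled, with 0 members.

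Values that changed sign were all small and not called. PXN with shPcyt2-1 was -0.027 with median-ratio scaling and -0.019 to 0.12 with a library left out. TLN1 with shPcyt2-1 was -0.039 with that scaling and -0.046 to 0.12 with a library left out, and with shPcyt2-2 -0.021 and -0.052 to 0.12. ZYX with shPcyt2-1 was 0.074 without the GC and length trend and -0.17 to 0.019 with a library left out, 0.014 of it without shNT replicate 2. MYL9 with shPcyt2-1 was -0.26 to 0.020.

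The replicate numbers were checked for pairing. The correlation of same-numbered deviations was 0.0027, 0.0619 and 0.191 for the 3 pairs of groups, and since only 1 of them exceeded 0.1 the numbers were not taken to pair the libraries, though those of the hairpins shared some deviation. With the replicate number as a block, all 16, 14 and 20 member calls held, and the pooled comparison passed 0 genes in place of 1.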

Other observations

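Of the 10 colon epithelium markers, 9 were tested. With shPcyt2-1, 3 fell (CDX2, ELF3 and LGALS4) and 0 rose, where 26.7% of all tested genes passed, and the median log2 difference of the 9 was 0.0217. With shPcyt2-2, 3 others fell (KRT8, KRT18 and KRT19) and 0 rose, where 12.4% of all tested genes passed. CDX2, a transcription factor of intestinal epithelium, was at 15.5 and 16.9 FPKM with shNT, 10.01 and 9.88 FPKM with shPcyt2-1, and 16.03 and 15.1 FPKM with shPcyt2-2, and fell with shPcyt2-1 (-0.65, limma adjusted p = 0.00138). ELF3, an epithelial transcription factor, fell with the same hairpin (-0.60, limma adjusted p = 0.00264). CDX2 and ELF3 were singled out after their values were seen.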
